A study of Mus musculus with 2 samples.

Results

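Mouse skin fibroblasts that carry Mmp11 and Lrrc15 transcripts are described here from 2 single-cell RNA libraries of back skin. A cell was counted as an Lrrc15 Mmp11 fibroblast when Col1a1, Col1a2 and Col3a1 together made up 1% or more of its UMIs (unique molecular identifiers, each standing for 1 captured transcript), when it held 2 or more UMIs of Mmp11 plus Lrrc15, when it held fewer than 2 UMIs each of Pi16 and Myoc, and when it held 0 UMIs of Ptprc, the pan-leukocyte gene. Of 7248 barcodes with 500 or more detected genes and under 20% mitochondrial UMIs, 264 met this rule, 251 in the WT library and 13 in the Card14KI library.

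The series compared 1 wild-type mouse with 1 mouse labelled Card14 KI +/+, both C57BL/6 and 12 months old, so each genotype is 1 animal and 1 library. Card14 encodes a scaffold protein of keratinocytes that activates NF-kB. The introduced Card14 allele is not named in the labels, and the knock-in is in the germline rather than in fibroblasts alone. Whole skin was digested to single cells, and the suspension held epidermal, mesenchymal, endothelial and immune cells together. With 1 mouse per genotype no test was possible. Every interval below is a 95% interval that covers counting error within a library only, not the spread between mice. Intervals on summed UMIs also leave out the spread between cells.

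A mesenchymal sheath of contractile fibroblasts wraps the lower hair follicle and is continuous with the dermal papilla at its base. Its cells carry smooth-muscle actin and its partner proteins, and contraction of the sheath helps to draw the follicle upward during regression. Mmp11 encodes stromelysin-3, a secreted metalloproteinase of stromal cells beside epithelium, and Lrrc15 encodes a leucine-rich repeat membrane protein of activated fibroblasts. Mmp11 (ENSMUSG00000000901) lies at chr10:75923222-75936496 and Lrrc15 (ENSMUSG00000052316) at chr16:30269302-30283256, both on the minus strand of GRCm38 in the GENCODE vM21 annotation. Acta2 encodes smooth-muscle alpha-actin, Tagln the actin-binding protein transgelin, Spp1 osteopontin and Postn periostin.

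The deposited libraries held 54816411 UMIs in 5016 WT barcodes and 41460580 UMIs in 3348 Card14KI barcodes. Lrrc15 Mmp11 fibroblasts had a median of 9446 UMIs in WT (1095 to 77110) and 7471 in Card14KI (2707 to 18123), against 7226 and 4940.5 in the other collagen fibroblasts. Across libraries 2 barcode sequences were shared, and 0 of the shared ones were Lrrc15 Mmp11 fibroblasts. One Card14KI cell stood apart: 6558 of its 18123 UMIs (36.2%) were haemoglobin, whereas the highest haemoglobin count among the 251 WT cells was 3. For Acta2, Tagln, Col11a1, Dcn and Postn the account of the Card14KI cells therefore gives values with all 13 cells and with the other 12. Bounds for genes at 0 UMIs and the ratios flagged at the end are given with all 13 only.

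The 2 rule genes were spread unevenly over the 251 WT cells. Mmp11 ran from 0 to 443 UMIs per cell with a median of 4, and Lrrc15 from 0 to 110 with a median of 5. Of the 209 WT cells with Mmp11, 179 also held Lrrc15. In the Card14KI library Mmp11 counts in the 13 cells were 33, 16, 3, 3, 3, 2, 2, 2, 1, 1, 0, 0 and 0, and 2 of these cells held more than 10. Lrrc15 counts in the Card14KI cells were 9, 7, 6, 4, 4, 3, 1 and 1, with 0 in the other 5.

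Acta2 and Tagln, which the rule did not use, were detected in part of the cells. Acta2 ran from 0 to 320 UMIs in WT with a median of 1, and 127 of 251 cells held a UMI. Tagln ran from 0 to 408 with a median of 0, and 109 of 251 held a UMI. The 25 WT cells with the most of each gene held 79.0% of the Acta2 and 81.4% of the Tagln UMIs. Counting intervals on such sums are too narrow for cells that differ this much. A UMI of either gene was found in 153 of 251 WT cells (61.0%) and in 7 of 13 Card14KI cells. The remaining 98 WT cells held neither, but 0 UMIs at these depths does not show that a cell lacks the transcripts. After thinning every cell to 2000 UMIs, Acta2 was detected in 29.8% of WT Lrrc15 Mmp11 fibroblasts (24.2 to 36.0), in 7.33% of collagen fibroblasts low in Pi16, Myoc and both rule genes, in 1.20% of keratinocytes and in 0.513% of Ptprc-positive cells. Thinning left out 3, 34, 16 and 80 shallower cells in that order. Without thinning the same shares were 50.6%, 14.1%, 5.24% and 2.41%, at median depths of 9446, 5281, 18988 and 3841 UMIs.

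Postn was nearly universal and Spp1 rare. Postn was detected in 244 of 251 WT cells, with 0 to 476 UMIs and a median of 34. Spp1 was detected in 55 of 251, and the 25 cells with the most Spp1 held 98.5% of its 3691 UMIs, 38.8% of them in 1 cell. In the Card14KI library Acta2 counts were 4, 2, 1 and 1 with 0 in the other 9, Tagln counts were 25, 11, 8 and 1 with 0 in the other 9, and Spp1 was 2 UMIs in 1 cell. The 25 Tagln UMIs lay in the haemoglobin-rich cell. Postn was found in 11 of the 13 cells, with a median of 12 UMIs and a highest count of 69.

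**Figure D1:**
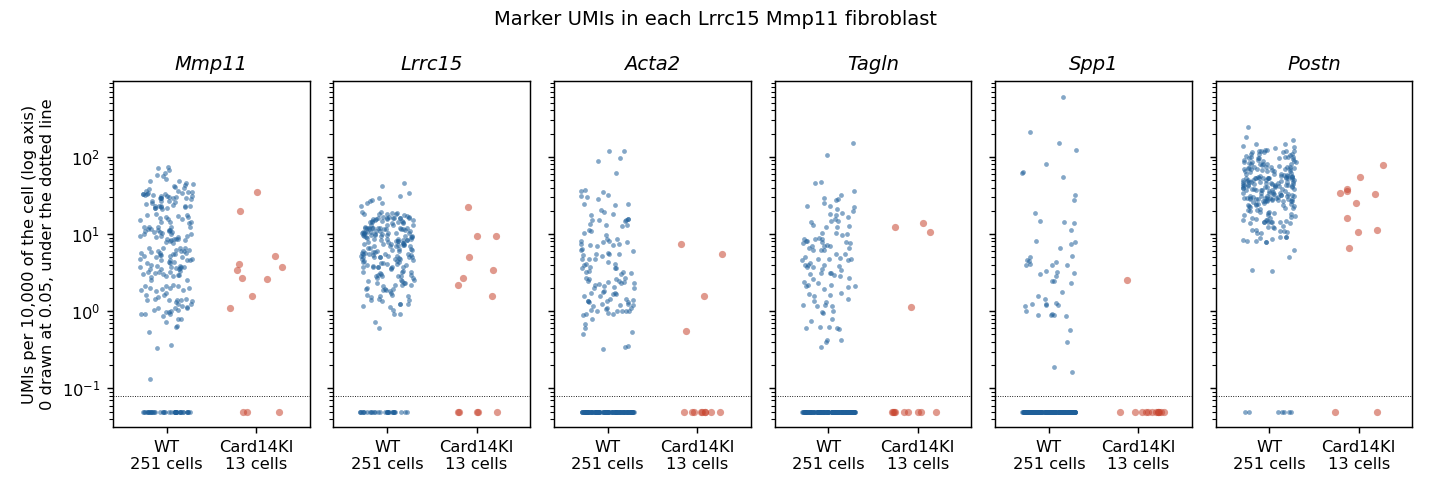
Each point is 1 Lrrc15 Mmp11 fibroblast, placed by its UMIs of the named gene per 10,000 UMIs of the cell on a log axis, for the WT library (251 cells, blue) and the Card14KI library (13 cells, red), with cells at 0 drawn under the dotted line. Postn is present in nearly all WT cells, Acta2 in 127 and Tagln in 109 of 251, and Spp1 in 55.

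Cells of this kind were a smaller share of the Card14KI library. They were 5.79% of the kept WT cells (251 of 4335, 5.11 to 6.53) and 0.446% of the kept Card14KI cells (13 of 2913, 0.238 to 0.762). Collagen fibroblasts of any kind were also a smaller share, 29.9% of kept cells against 14.8%. Within them, Lrrc15 Mmp11 fibroblasts were 19.4% in WT (251 of 1296, 17.2 to 21.6) and 3.02% in Card14KI (13 of 431, 1.62 to 5.10). Among collagen fibroblasts low in Pi16 and Myoc the shares were 57.7% (251 of 435) and 12.7% (13 of 102). The intervals do not overlap in any of these denominators, but the spread between mice cannot be measured, and share of tissue cannot be told apart from yield of digestion.

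The collagen requirement itself depends on transcripts that were lower in the Card14KI library. Col1a1 in collagen fibroblasts was 15185 CPM (UMIs scaled to a total of 1000000) in WT and 7718 in Card14KI. With no collagen minimum the rule found 349 WT cells (8.05% of kept cells) and 33 Card14KI cells (1.13%), and with a minimum of 2% it found 187 (4.31%) and 11 (0.378%). Raising the marker minimum from 2 to 10 UMIs left 139 WT and 2 Card14KI cells. At 50 marker UMIs there were 29 WT cells and 0 Card14KI cells.

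**Figure D2:**
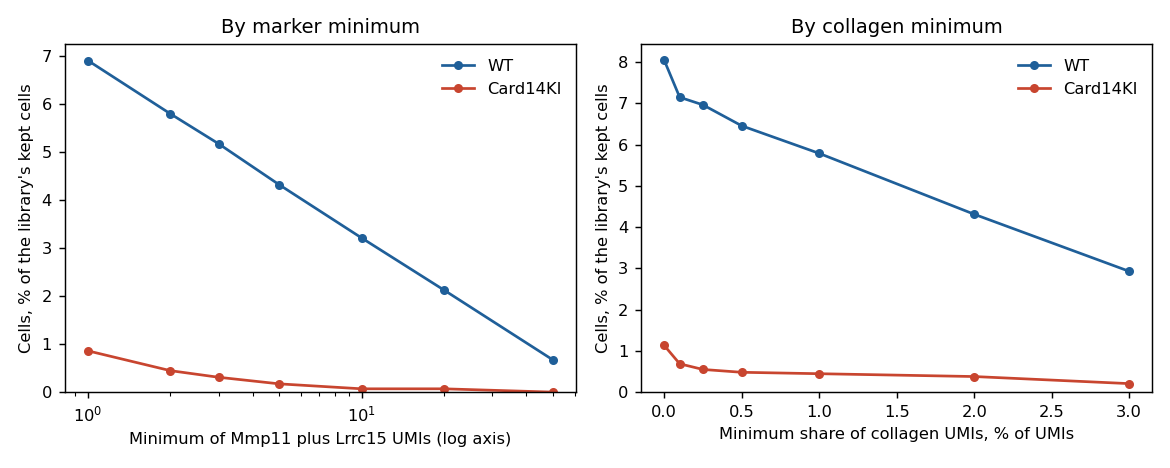
The share of each library's kept cells that met the rule (vertical axis, %) is plotted against the minimum number of Mmp11 plus Lrrc15 UMIs (left, log axis) and against the minimum collagen share of a cell's UMIs (right), with WT in blue and Card14KI in red. The WT share lies above the Card14KI share at every minimum drawn, from 6.90% against 0.858% at 1 marker UMI to 0.669% against 0 at 50.

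Marker genes of the group were also lower over all kept cells, counted without picking cells by the rule. These levels take in other cells and are not levels of the group. Mmp11 and Lrrc15 are genes of the rule, so their levels are not separate from the shares of cells given above. Mmp11 was 105 CPM (102 to 107) in the WT library and 7.18 (6.37 to 8.05) in the Card14KI library, 14.6-fold lower (12.96 to 16.5). Lrrc15 was 109 against 4.54, 24.0-fold lower (20.7 to 28.0). In WT 69.5% of Mmp11 UMIs and 44.2% of Lrrc15 UMIs lay in the 251 cells. Keratinocytes held 221 Lrrc15 UMIs in WT and 1 in Card14KI. Within collagen fibroblasts alone Mmp11 was 8.22-fold lower in Card14KI and Lrrc15 11.5-fold lower. Acta2, shared with pericytes and vascular muscle, was 115 against 17.7 (6.49-fold lower), and Tagln 117 against 13.1 (8.87-fold lower). The 251 cells held 37.9% of the WT Acta2 UMIs and 33.6% of the WT Tagln UMIs. Lower levels were not particular to this group. The pericyte gene Rgs5 was 4.96-fold lower and the smooth-muscle gene Myh11 4.27-fold, with 0.265% and 0.752% of their WT UMIs in the 251 cells. Col1a1 was 5.74-fold and Col3a1 5.04-fold lower. Corin, a serine protease of the dermal papilla, was 12.3 against 1.17. Markers of growing hair moved the same way: 209 WT cells (4.82%) and 3 Card14KI cells (0.103%) held 10 or more UMIs of the inner root sheath genes Krt71, Krt25, Krt27 and Tchh. Whether hair growth has a part in the difference between libraries was not tested.

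Values near the limits of the rule are given once, for WT. Of the cells that met the other conditions, the 136 with 0 marker UMIs had an Acta2 level of 90.3 CPM (70.0 to 115) and the 48 with 1 had 55.9 (33.7 to 87.3). The 27 cells with 2 had 147, the 85 cells with 3 to 9 had 489, and the 139 cells with 10 or more had 874. The 29 cells with 0.5 to 1% collagen had 655, and the 64 cells just above that limit, at 1 to 2%, had 1311. The 186 cells with 2 or more marker UMIs that were left out for Pi16 had 42.5. Acta2 was thus high in cells just under the collagen limit and low in cells left out for Pi16.

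Levels were then compared between Lrrc15 Mmp11 fibroblasts and the other 1045 collagen fibroblasts of the WT library, as CPM of summed cells. A gene counted as higher or lower when the ratio, with 10 CPM added to both sides, passed 2-fold. Of 11897 genes with 20 or more UMIs, 250 were higher (2.1%) and 295 lower (2.48%), and the median log2 ratio was 0.08. The cells were selected on Mmp11, Lrrc15, Pi16 and Myoc and any gene that tracks these follows from the selection, so the levels are a description with no test. The Card14KI library, with 13 cells, was not ranked. The 15 highest of the WT genes with no more than 25% of UMIs in 1 cell were Tagln, Acta2, Chchd10, Ednrb, Mmp11, Mamdc2, Ctsc, Lrrc15, Col11a1, Corin, Tpm2, Serpine2, Tnn, Actg2 and Col7a1. The 10 lowest were Pi16, Myoc, C3, Cyp2f2, Sfrp4, Plac8, Inmt, Smpd3, Serpina3n and Sfrp1, the first 2 being genes of the rule.

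Contractile genes were higher as a group. Of 20 listed genes that could be compared 13 were higher and 0 lower, beside 2.1% and 2.48% of all genes. The list median was 1.47 on the log2 scale. Acta2 was 737 CPM (708 to 768) against 27.1 (23.6 to 31.0), 27.2-fold (23.6 to 31.4). Tagln was 666 (638 to 695) against 23.4, 28.4-fold (24.4 to 33.2). Tpm2, a tropomyosin that lies along actin filaments, was 304 against 31.3. Actn1, the alpha-actinin that crosslinks actin, was 170 against 32.6. The myosin light chain Myl9 was 160 against 35.1, and Mylk, the kinase that starts smooth-muscle contraction, was 160 against 43.2. Itga8, an integrin subunit of sheath and muscle cells, was 36.6 against 4.94. In Card14KI, 8 Acta2 UMIs gave 80.4 CPM in the 13 cells against 28.1 in the other collagen fibroblasts, and 86.1 in the 12 cells.

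Smooth-muscle and pericyte markers were split. Of 11 listed genes compared, 3 were higher (Cspg4, Mcam and Actg2, the last also on the contractile list) beside 2.1% of all genes, 1 was lower, and the list median was 0.10. The lower gene was Ndufa4l2, at 99.4 against 288. The 15 listed genes summed to 284 CPM against 331, and without Ndufa4l2 the other 14 summed to 184 against 42.7. Kcnj8, Higd1b and Des were at 0 in all 251 WT cells. Rgs5, the regulator that defines pericytes, was 1 UMI, and Myh11, the smooth-muscle myosin heavy chain, was 3 UMIs. Actg2, the enteric smooth-muscle actin, was 59.4 against 0.380 and was present in 48 cells. Mcam, the adhesion molecule CD146, was 40.7 against 1.65, and Cspg4, the proteoglycan NG2, was 60.0 against 6.33.

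The letters before 3 contractile genes that were higher together are shown as promoter sequence. Each is the run of 200 bases before the start of transcription that RefSeq annotates, 5′ to 3′ on the gene's strand, taken from RefSeq (GRCm38.p6), at chr19:34255374-34255573 (Acta2, minus strand), chr2:156775264-156775463 (Myl9, plus strand) and chr10:79988400-79988599 (Cnn2, plus strand). The GENCODE vM21 gene starts further upstream in each case, so that 200, 44 and 16 of the printed bases lie inside the GENCODE gene. Capitals mark a GGAATG, the core word bound by TEAD factors, in Acta2, and a CArG box, the element bound by serum response factor, in Myl9 and Cnn2.
Acta2: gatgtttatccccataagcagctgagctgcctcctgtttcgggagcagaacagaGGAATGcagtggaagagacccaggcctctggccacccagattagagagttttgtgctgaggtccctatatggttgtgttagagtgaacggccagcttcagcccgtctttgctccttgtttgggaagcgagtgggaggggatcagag
Myl9: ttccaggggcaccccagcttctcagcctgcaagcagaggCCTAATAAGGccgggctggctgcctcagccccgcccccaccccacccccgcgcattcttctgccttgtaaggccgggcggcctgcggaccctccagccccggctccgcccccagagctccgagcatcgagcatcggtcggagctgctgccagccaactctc
Cnn2: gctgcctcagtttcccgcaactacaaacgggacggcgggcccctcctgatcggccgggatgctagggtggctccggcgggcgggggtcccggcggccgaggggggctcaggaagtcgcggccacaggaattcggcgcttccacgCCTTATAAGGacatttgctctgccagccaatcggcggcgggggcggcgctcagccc
The search covered both strands of 300 bases, 250 before the start and 50 after. GGAATG was found before 5 of the 11 higher contractile genes with a promoter entry (Acta2, Cald1, Flna, Mylk and Tpm1) and before 16.6% of all 27025 genes (14.7% of 32851 promoters). The CArG box, whose core holds only A and T, was found before 2 of 11 and before 1.81% of all genes (1.63% of promoters). Only exact matches were counted. Near matches with a C or G in the core, such as ccctatatgg and ccttgtttgg in the printed Acta2 run, were left out. The Acta2 result therefore does not show that serum response factor has no site there. A match is a description of the letters and not evidence of binding.

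Genes of the dermal sheath list were higher in 10 of 12 cases (median log2 ratio 2.25), beside 2.1% of all genes. The list holds Acta2, Tagln, Postn and both rule genes, whose ratios follow from the selection. It shares Acta2, Tagln, Itga8 and Mylk with the contractile list. Col11a1, a chain of the fibril-nucleating collagen XI, was 257 against 20.1 (12.7-fold, 10.7 to 15.2) and was present in 136 of 251 cells. Tnn, the matrix glycoprotein tenascin-N, was 125 against 8.99, and Postn was 4838 against 1883. The endothelin receptors were among the growth factor genes past 2-fold: Ednrb was 212 against 2.91 (72.9-fold, 48.2 to 116), and Ednra was 89.3 against 29.0. Midkine, the heparin-binding growth factor Mdk, was 451 against 76.1.

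Dermal papilla genes were mixed. Of 20 compared, 7 were higher and 2 lower, beside 2.1% and 2.48% of all genes. Corin was 104 against 3.67 (28.3-fold, 19.3 to 42.9), Alx4, a homeobox factor, was 12.9 against 0.760, and Ndp, the Norrin ligand of Frizzled, was 17.4 against 0.760. Inhba, the activin A subunit, was 108 against 21.9. Fgf7, the keratinocyte growth factor, was lower at 35.4 against 89.2, and Bmp4 was lower at 28.4 against 85.0. In WT 43 of the 86 kept cells with 2 or more Corin UMIs were Lrrc15 Mmp11 fibroblasts, and in Card14KI 0 of 10 were.

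**Figure D3:**
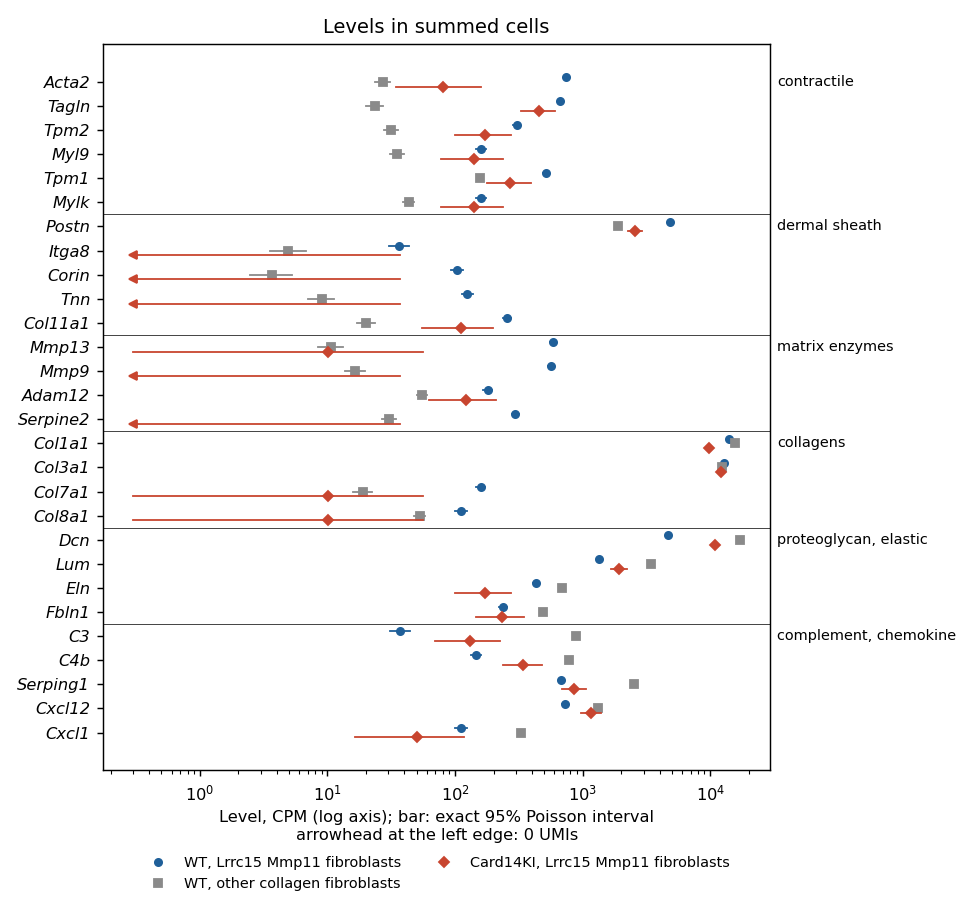
Level of each gene in CPM on a log axis, summed over Lrrc15 Mmp11 fibroblasts of WT (blue circles), other collagen fibroblasts of WT (grey squares) and Lrrc15 Mmp11 fibroblasts of Card14KI (red diamonds), with exact 95% Poisson intervals as bars and an arrowhead for 0 UMIs. The blue points lie right of the grey for contractile and sheath genes (Acta2 737 against 27.1) and left of them for Dcn, C3 and Serping1 (C3 37.3 against 894).

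Single collagens differed in both directions. Of the 3 collagens of the rule, which both groups had to carry, Col1a1 was 14110 against 15617 CPM, Col1a2 was 11992 against 15237, and Col3a1 was 12731 against 12251. Of 22 collagen genes, 7 were higher and 1 lower, beside 2.1% and 2.48% of all genes. Col12a1, which decorates collagen fibrils, was 620 against 187, Col7a1, the anchoring fibril collagen, was 158 against 18.9, and Col6a3 was 2749 against 1212. Col10a1, the collagen of hypertrophic cartilage, was 137 against 0.507, but it came from 11 cells and 41.8% of its UMIs lay in 1.

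Several proteases were concentrated in few cells. Mmp13, the collagenase-3 gene, was 582 against 10.6 and was detected in 43 of 251 cells, with 37.0% of its UMIs in 1 cell. Mmp9, the gelatinase B gene, was 564 against 16.5 and was detected in 24 cells. Adam12, a membrane metalloproteinase, was 181 against 55.2 and was spread over 160 cells. The protease inhibitor Serpine2 was 296 against 30.5. Timp3, an inhibitor of metalloproteinases that stays bound to matrix, was lower at 381 against 1099. Of the 30 listed proteases and inhibitors, 5 were higher, Mmp11 included, and 3 lower, beside 2.1% and 2.48% of all genes.

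Proteoglycan and elastic fibre genes lay on the low side, beside 2.48% of all genes lower and 2.1% higher. Of 11 small leucine-rich proteoglycans 5 were lower and 0 higher: Dcn, decorin, was 4625 against 17048 (3.69-fold lower, 3.62 to 3.75), Lum, lumican, was 1348 against 3401, and Ogn was 234 against 1022. Of 17 elastic fibre genes 6 were lower and 0 higher, with Efemp1 at 168 against 802 and Ltbp1 at 54.9 against 216. Of 23 matricellular genes 9 were higher, Spp1 and Postn included, and 5 lower. Tnc, tenascin-C, was 313 against 72.2 and Spon1 205 against 34.6, while Tnxb, the tenascin of mature dermis, was 221 against 837.

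Many complement and chemokine genes were lower, beside 2.48% of all genes. Most genes of the other immune lists lay within 2-fold, but interferon, MHC and cytokine receptor genes were also lower more often than that share. Of 11 complement genes 8 were lower and 0 higher: C3 was 37.3 (30.8 to 44.6) against 894, C4b was 146 against 783, and the C1 inhibitor Serping1 was 677 against 2523. Of 27 chemokine and cytokine genes 14 were lower and 0 higher. Il6 was 12.0 against 107, Ccl11, an eosinophil attractant, was 78.3 against 364, and Cxcl14 was 50.5 against 328. Saa3 was 1 UMI in the 251 cells and 139 CPM in the others, where 35 cells held it. Interferon and MHC genes were lower in 4 of 20 cases, H2-K1 at 521 against 1160 among them, and cytokine receptors in 4 of 23. The NF-kB and immediate early lists held 0 genes past 2-fold of 24 and 22. Of the other 1045 cells used for comparison, 834 held 2 or more Pi16 UMIs. Against the 184 WT fibroblasts low in Pi16, Myoc and the rule genes, C3 stood at 37.3 against 479, Dcn at 4625 against 13162 and Acta2 at 737 against 79.5.

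Most signalling genes lay within 2-fold, but the 3 lists here held larger shares past it than all genes did (2.1% higher and 2.48% lower). Of 33 TGF-beta and BMP genes 2 were higher (Tgfb1 at 99.8 against 30.3, and Inhba) and 6 lower, among them the receptor Tgfbr2 at 266 against 884. Of 32 Wnt genes 5 were higher and 3 lower. Dkk3 was 240 against 84.0, and the secreted Frizzled-related inhibitors Sfrp1 and Sfrp4 were low, Sfrp1 at 9.79 against 139 and Sfrp4 at 4.74 against 132. Hgf was 4.74 against 38.8, and the IGF-binding protein Igfbp6 was 223 against 1287. Among 27 growth factor genes 3 were higher and 5 lower.

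The remaining lists are given in counts, beside 2.1% of all genes higher and 2.48% lower. Of 12 Pi16 fibroblast genes 11 were lower and of 12 Myoc fibroblast genes 8 were lower, and the rule itself selected against both sets. The papillary fibroblast list had 3 of 12 higher (Lef1, Col23a1 and Prdm1) and 1 lower. Prdm1, the repressor Blimp1, was 50.8 against 5.57. Of 24 collagen processing genes 0 were higher and 1 lower, Pcolce2 at 134 against 680. The basement membrane list had 1 higher and 1 lower of 13, the tendon and cartilage list 1 and 1 of 7, and the cell cycle list 2 and 0 of 21.

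**Figure D4:**
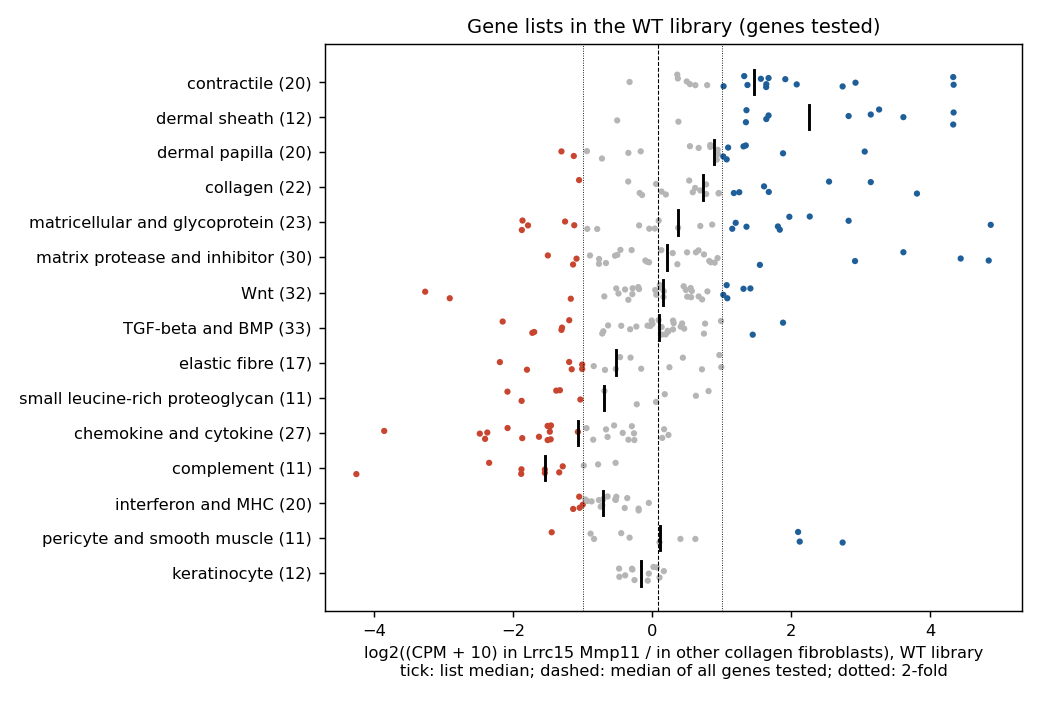
Each point is a gene of the named list with 20 or more UMIs, placed by its log2 ratio of Lrrc15 Mmp11 over other collagen fibroblasts in the WT library after adding 10 CPM (blue 2-fold higher, red 2-fold lower, grey between), with the list median as a black tick and the median of all genes dashed. The contractile (1.47) and dermal sheath (2.25) medians lie right of the dashed line at 0.08, and the complement (-1.54) and chemokine (-1.07) medians lie left of it. The dermal sheath list holds both rule genes and shares Acta2, Tagln, Itga8 and Mylk with the contractile list.

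Markers of other skin cells are given as sums over the WT fibroblasts. The 13 keratinocyte markers summed to 269 CPM in Lrrc15 Mmp11 fibroblasts and 295 in the others, with none at 0 and none past 2-fold of 12 compared. The 14 immune markers summed to 42.9 against 29.6 (Cd3e at 0), and the 11 endothelial markers to 36.3 against 45.1 (Emcn and Tie1 at 0). The 8 adipocyte markers summed to 547 against 817 (Cidec, Retn and Lep at 0), most of it Lpl, the lipoprotein lipase gene. The 12 hair shaft and inner root sheath genes summed to 137 against 179 (Krt31 at 0). Red cell genes summed to 29.7 against 190 in WT and to 66116 in the 13 Card14KI cells. Their part in the results was not tested.

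The group was not uniform. All 1727 collagen fibroblasts were clustered without Mmp11, Lrrc15, Pi16, Myoc and Ptprc among the variable genes. The collagens of the rule were not left out. Of the 264 cells, 138 (52.3%) fell in cluster 1 and 46 (17.4%) in cluster 2, with the other 80 spread over 9 clusters. Cluster 1 held 163 cells, 153 WT and 10 Card14KI, and was led by Tagln, Hbb-bs, Acta2, Mmp11, Chchd10, Col11a1, Lrrc15, Ednrb, Tpm2 and Lce1m. Of its Hbb-bs UMIs 98.8% came from the haemoglobin-rich Card14KI cell, and 94.1% of its Lce1m UMIs came from 1 WT cell outside the rule. Cluster 2 held 88 cells, all WT, and was led by Spp1, Mmp9, Mmp13, Serpine2, Tagln, Tnc, Acta2, Igfbp2, Col8a1 and Col7a1. The clusters are kept as numbers, and the comparisons between them describe genes that also formed them.

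Both clusters carried the contractile genes, and the cells outside them held lower levels that in part exceeded those of other fibroblasts. In WT, Acta2 was 1028 CPM in the 133 cells of cluster 1, 712 in the 46 cells of cluster 2 and 32.0 in the 72 cells elsewhere. The 24 contractile genes summed to 7299, 6826 and 2539 in that order, beside 2188 in collagen fibroblasts outside the rule and outside both clusters. Mmp11 was 1794 CPM in cluster 1, 730 in cluster 2 and 377 elsewhere.

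The 72 cells elsewhere made up 28.7% of the WT group. Acta2 was 32.0 CPM in them (20.1 to 48.4) against 14.0 (11.4 to 17.0) in collagen fibroblasts outside the rule and both clusters, 2.28-fold higher (1.37 to 3.65). Tpm2 was 2.19-fold higher (1.39 to 3.33). Tagln was 33.4 against 16.2, Mylk 80.0 against 39.8 and Actn1 45.1 against 22.8. Of 18 contractile genes with 20 or more UMIs, 9 had a ratio whose counting interval lay above 1 and 0 had one below 1. Their median ratio was 1.37-fold. The lower limits for Myl9 (1.002), Smtn (1.005) and Cnn3 (1.009) lay close to 1. The share of all genes with such intervals was not computed for these cells, so the count of 9 cannot be set against other genes. The 72 cells were also picked for Mmp11 plus Lrrc15, so genes that track these follow from the selection. Myl6, a light chain of non-muscle myosin, held much of the summed level and was 1146 against 1152. Without it the contractile genes summed to 1393 against 1037. Postn was 4588 against 1768 and Col11a1 82.9 against 15.5. Adipocyte markers summed to 1719 CPM in the 72 cells, against 172 in cluster 1, 341 in cluster 2 and 856 in the fibroblasts outside. Of that sum Lpl was 1479 and Fabp4, a fatty acid binding protein, was 221, whereas Adipoq and Plin1, which define adipocytes, were at 0 in the 72 cells. The part of these markers in the other values was not tested.

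The 2 clusters differed from each other in sheath, papilla and remodelling genes. Corin was 183 in cluster 1 and 13.4 in cluster 2 (13.6-fold, 7.31 to 28.7), and Ednrb was 369 and 17.4. Itga8 was 60.0 and 9.39, and Col11a1 was 392 and 103. In the other direction Spp1 was 121 and 4629, Mmp13 was 187 and 2037, and Mmp9 was 1 UMI in cluster 1 and 2394 CPM in cluster 2. Tnc was 77.3 and 1109, the fibronectin gene Fn1 was 151 and 3467, and Timp1 was 188 and 1027. Single cells weighed on the cluster 2 levels of Spp1, Mmp13 and Mmp9. Of all UMIs in the 251 WT cells, 1 cell held 1431 of 3691 for Spp1, 683 of 1844 for Mmp13 and 479 of 1787 for Mmp9. Col1a1 was 9064 and 21340, so cluster 1 held less type I collagen transcript than cluster 2 or the 72 cells elsewhere (18998). Mki67, a gene of dividing cells, was 3.46 in cluster 1 and 56.3 in cluster 2, where 6 of 46 cells held it.

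**Figure D5:**
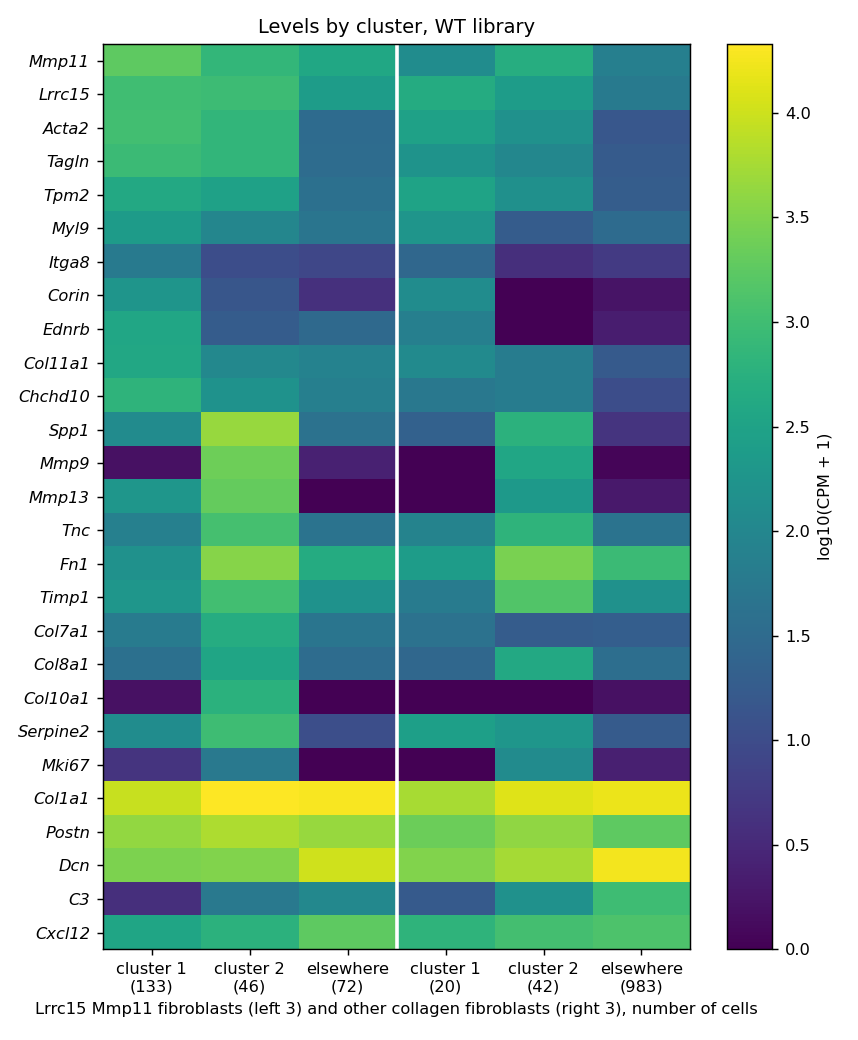
Colour gives log10 of CPM plus 1 for each gene (rows) in WT Lrrc15 Mmp11 fibroblasts (left 3 columns: cluster 1, cluster 2, elsewhere) and in other WT collagen fibroblasts (right 3 columns), with cell numbers under each column. Among Lrrc15 Mmp11 fibroblasts Acta2 and Tagln are brighter in clusters 1 and 2 than elsewhere, Corin and Ednrb are brightest in cluster 1, and Spp1, Mmp9, Mmp13 and Fn1 are brightest in cluster 2. Single cells hold a large part of the Spp1, Mmp9 and Mmp13 UMIs of cluster 2.

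Within single WT cells the contractile genes overlapped in part. Tagln was found in 83 of 127 cells with Acta2 and in 26 of 124 without, at median depths of 10990 and 8167 UMIs. Mmp13 was found in 21 of 55 cells with Spp1 and in 22 of 196 without, at median depths of 15517 and 8846.5. All 4 of Acta2, Tagln, Spp1 and Postn were found together in 39 of 251 cells, and 6 held none of them. Depth differed between the cells compared, and its part was not tested.

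In the Card14KI library the 13 cells were too few for a ranking, and 5 of them lay in cluster 1 and 0 in cluster 2. Acta2 was 80.4 CPM against 737 in the WT cells, and 86.1 without the haemoglobin-rich cell (8.56-fold lower, 4.15 to 21.3). Col11a1 was 11 UMIs in the 13 cells, 2.32-fold lower than in WT (1.29 to 4.67), and 4 UMIs in the 12, 5.22-fold lower (2.03 to 19.2), so that 1 cell moved its value. Corin, Tnn, Itga8, Ednrb and Crabp1 were at 0 UMIs in all 13. Against a floor of 3 UMIs over the 13 cells, Ednrb was at least 7.04-fold lower than in WT, Tnn at least 4.13-fold and Corin at least 3.44-fold. The other 12 cells held 81323 of the 99446 UMIs, so these bounds would be lower without the haemoglobin-rich cell. Dcn was 10880 against 4625 in WT and 12912 without the haemoglobin-rich cell. Tagln was 453 against 666 with all 13 cells and 246 without that cell, so that 1 cell decided its value. Postn was 2564 against 4838, and 2988 in the 12 cells. In the other Card14KI collagen fibroblasts Dcn was 22190. The difference between the 2 libraries in these cells could not be tested with 1 mouse per genotype.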

How the data were processed

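Per the labels' protocols, whole back skin was digested, and 3' libraries were made from single cells. The deposited values are raw UMI counts per gene and barcode, not normalized. Counting used Cell Ranger 6.0.2 with mm10 per the submitters' processing notes, whereas the file headers name 5.0.0. Reads of near-identical genes (haemoglobins, Ly6c1, Serpina3n) can be split or lost.

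Barcodes were filtered and classified as the report states. Counts were summed over cells and scaled to 1000000 UMIs (CPM). Sums have exact Poisson, ratios exact conditional binomial and shares Clopper-Pearson intervals at 95%. A group at 0 was set to a floor of 3 UMIs. Ratios used a pseudocount of 10 and a minimum of 20 UMIs. Ratio code was checked on simulated data. Clustering used scanpy 1.11.5, Leiden resolution 1. No doublet caller was used for the main values: Scrublet's own threshold marked 2 and 4 cells, too few to use, and leaving out the cells of highest score instead (an alternative) removed 6 of 251 and 1 of 13. The members and the 32 gene lists were chosen with earlier results of these data known. The result of 1 list is not reported here. Named genes were the rule genes, the markers, listed genes past 2-fold or of highest level, and the 15 highest and 10 lowest WT ratios.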

Additional observations from a re-analysis of the deposited data

Results flagged for a closer look

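Genes are given here whose ratio of Lrrc15 Mmp11 fibroblasts to other collagen fibroblasts lay above 1 in one library and below 1 in the other, with counting intervals on opposite sides of 1. The difference between libraries was not tested, and the Card14KI ratio rests on 13 cells. For 3 genes the 13 Card14KI cells held 0 UMIs, and the Card14KI value is a bound against a floor of 3 UMIs over those cells. These bounds compare the 13 cells with the other Card14KI collagen fibroblasts, not with WT. Serpine2 had a log2 ratio of 2.92 in WT, and in Card14KI it was at least 1.65-fold lower than in those other fibroblasts. On the same comparison Spon1 had 2.27 in WT and was at least 1.35-fold lower within Card14KI. Crabp1 had 0.93 in WT and was at least 2.55-fold lower within Card14KI. Col1a1 had a log2 ratio of -0.15 in WT and 0.36 in Card14KI, and Col1a2 had -0.35 and 0.10, both genes of the rule. Haemoglobin genes were lower in WT and higher in Card14KI: Hba-a1 at -1.98 and 8.12, Hba-a2 at -1.88 and 8.08, and Hbb-bs at -1.83 and 8.25. A single Card14KI cell held 6558 haemoglobin UMIs, and every Card14KI value in this paragraph includes that cell.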

How the results depend on the processing

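No paired analysis was possible because each genotype has 1 library. With 1 mouse per genotype and 13 Card14KI cells, the number of cells limits every Card14KI value, and no value can be set against the spread between mice. The share of Lrrc15 Mmp11 fibroblasts stayed higher in WT under each of the 8 alternative rules and filters. Of kept WT cells it was 5.06% with no cell filter, 4.31% at 2% collagen, 4.57% after thinning to 2000 UMIs and 8.05% with no collagen minimum (1.13% of Card14KI cells). Of WT collagen fibroblasts it was 21.6% at 2% collagen, 14.0% after thinning, 15.5% at 0.5% collagen and 9.66% with no collagen minimum. In Card14KI the latter share was 6.32% at 2% collagen and 1.26% with no collagen minimum, against 3.02%. The settings of 0 and 0.5% collagen were chosen after the data were seen.

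The number of genes past 2-fold depends on the pseudocount: 706 were higher and 724 lower with 1 CPM, and 70 and 118 with 50. Against the Myoc fibroblasts alone, 484 were higher and 457 lower. Of 150 named genes past 2-fold, 92 (pseudocount 50) to 150 stayed past it, and the direction turned only where listed next. Against Myoc fibroblasts Ndufa4l2 stood at 1.81, Mfap4 at 0.46, Grem1 at 0.95 and Ccl19 at 0.0571 on the log2 scale. Against fibroblasts low in Pi16, Myoc and the rule genes Thbs4 stood at 0.86, Mfap4 at 0.0705 and Coch at 1.94. At 2% collagen Thbs4 stood at 0.30 and Notum at -0.0049. The cause was not tested.

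For Card14KI over WT within the cells, the log2 ratio of Acta2 lay between -3.61 and -1.54 over 11 alternatives and that of Dcn between 0.32 and 1.48. Tagln lay between -1.77 and 0.65, so its direction depends on the setting.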
